A study of Rattus norvegicus with 6 samples.

Results

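The genes described here are 32 genes of the unfolded protein response, measured in cultured rat spinal cord astrocytes that carry a mutant human SOD1 transgene and in cultures without it. They were taken by gene symbol from a list of the pathway's sensors, transcription factors, chaperones and targets. The rule for membership uses no measured value, but the list was drawn up with earlier results of these data known. All 32 were on the Affymetrix Rat Genome 230 2.0 array, where they are read by 47 probe sets, and each gene is represented by its probe set with the highest mean log2 signal over the arrays. They are 32 of the 10473 genes that had a named probe set above the filter on dim signals.

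The tested cultures, hSOD1G93A, were primary spinal cord astrocytes from transgenic rats that express human superoxide dismutase 1 with a substitution linked to familial amyotrophic lateral sclerosis. The control cultures, NonTG, were primary spinal cord astrocytes of the same kind without the transgene. Each group had 3 arrays, lettered A, B and C. Both kinds of culture had grown to confluence as monolayers and spent 24 hours in L15 medium with supplements before RNA extraction, with 5 ug of total RNA used per array. The labels name neither the promoter that drives the transgene nor the age of the animals. Nor do they state that the 3 arrays of a group stand for different animals or culture preparations, so every p-value rests on the spread among these arrays alone, and that spread may be technical.

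The unfolded protein response is the programme by which a cell adjusts to misfolded protein in the endoplasmic reticulum (ER). In mammalian cells it is started by 3 ER membrane sensors: IRE1, which splices Xbp1 mRNA; PERK, which slows translation and thereby raises ATF4 protein; and ATF6, which is cut to release a transcription factor. XBP1 and ATF6 raise chaperones and degradation factors, while ATF4 raises genes of amino acid supply and, with CHOP (Ddit3), of the later stress response. Because splicing of Xbp1, translation of Atf4 and cleavage of ATF6 happen after transcription, the amounts of mRNA measured here do not read those steps.

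The DNA elements through which ATF6 and XBP1 act are short and can be seen in the promoters of the genes themselves. The ER stress response element (ERSE) has the letters CCAAT and CCACG separated by 9 bases, and ERSE-II has ATTGG and CCACG separated by 1 base. Both were searched on both strands of the RefSeq promoter windows of the rat build GRCr8, which run from 250 bases before to 50 bases after the start of a gene. A window was given for 26 of the 32 genes; those not matched were Atf3, Atf6, Manf, Pdia3, Pdia6 and Ero1a. ERSE was found in 8 of the 26 genes (30.8%) and in 22 of all 33469 windows (0.0657%). ERSE-II was found in 3 of the 26 (11.5%) and in 17 of all windows (0.0508%). No 2 matches to different elements overlapped in these genes.

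The following stretches show the ERSE matches of 4 genes with different roles, to let the shared letters be compared. Each is written 5′ to 3′ in the orientation of the element, with the whole 19-base match in capitals and up to 15 bases on each side in lower case.
Hspa5, chr3:38452958-38453006, plus strand, which is the strand of the gene, with the match starting 43 bases before the gene: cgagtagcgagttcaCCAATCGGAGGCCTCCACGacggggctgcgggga
Xbp1, chr14:84604543-84604591, plus strand, the strand of the gene, starting 65 bases before it: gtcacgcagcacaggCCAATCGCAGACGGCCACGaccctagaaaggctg
Hsp90b1, chr7:23012436-23012484, minus strand, the strand of the gene, starting 176 bases before it: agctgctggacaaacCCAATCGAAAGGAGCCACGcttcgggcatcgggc
Calr, chr19:40213120-40213168, minus strand, opposite to the gene, within 232 bases before it: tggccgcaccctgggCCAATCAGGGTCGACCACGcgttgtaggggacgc

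Hsp90b1 held a second ERSE match nearer to its start, and the other genes with one were Canx, Creld2, Dnajc3 and Ero1b. ERSE-II is shown for the 2 genes below, with the match in capitals.
Herpud1, chr19:10614806-10614846, minus strand, the strand of the gene, starting 124 bases before it: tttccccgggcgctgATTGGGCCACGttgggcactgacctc
Hyou1, chr8:53602779-53602819, minus strand, opposite to the gene, within 88 bases before it: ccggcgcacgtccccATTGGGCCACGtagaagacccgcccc

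Hyou1 held a second ERSE-II match, and Dnajb11 held one. The element bound by ATF4 with C/EBP partners was searched with the letters TGATGNAA, again on both strands. It was found in 3 of the 26 genes, Chac1, Herpud1 and Trib3 (11.5%), and in 1332 of all windows (3.98%). The matches of Chac1 and Trib3, both known targets of this arm, are shown in the orientation of the element.
Chac1, chr3:126795949-126795986, minus strand, opposite to the gene, within 167 bases before it: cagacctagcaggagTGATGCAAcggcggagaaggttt
Trib3, chr3:161275534-161275569, plus strand, opposite to the gene, within 21 bases before it: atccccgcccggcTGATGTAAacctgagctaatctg

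A match describes the letters only, and a window without one says only that these letters are absent from it.

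The signals are MAS5 intensities on a linear scale, scaled by the authors to a common trimmed mean, and a probe set's brightness depends on its probes as well as on its transcript. Array medians ranged from 129.29 to 136.75. Of the markers fixed for 6 cell types, 10 of the 11 astrocyte markers on the array were above the dim filter and 2 of the 12 microglia markers were. The brightest astrocyte marker was Fabp7, at 21307 ± 1220 in hSOD1G93A and 22753 ± 703 in NonTG (SD, n = 3 each). The other lists had 9 of 9 fibroblast, 7 of 8 pericyte and smooth muscle, 7 of 11 oligodendrocyte and 8 of 11 neuron markers above the filter. Their brightest genes, with mean signals in hSOD1G93A and NonTG, were Col1a2 (20463 and 22326), Tagln (12758 and 13972), Cnp (1998 and 2272) and Gad1 (2619 and 2705). The probe set of rat Sod1 read 9781, 10860 and 10510 on the hSOD1G93A arrays, against 8982, 8855 and 9430 on the NonTG arrays. Every hSOD1G93A array was above every NonTG array, and groups without overlap in either direction were seen for 7.51% of all probe sets. On the log2 scale hSOD1G93A minus NonTG was 0.19 (SE 0.069, adjusted p = 0.9997 in limma). This probe set was made for the rat transcript, so it does not check the human transgene. Whether human SOD1 mRNA adds to its signal was not tested.

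No gene of the 32 passed the test of hSOD1G93A against NonTG astrocytes. In limma, 0 of 32 passed an adjusted p of 0.05, and 0 of 32 had an unadjusted p below 0.05. Over all 18625 probe sets tested, 0 (0.0%) passed after adjustment and 474 (2.54%) had an unadjusted p below 0.05. The adjusted p was 0.9997 for each of the 32 genes, and the lowest value that any of them reached under any alternative was 0.762. With the replicate letter as a block in the limma fit, 2 of 32 genes had an unadjusted p below 0.05, Ddit3 and Hspa5, beside 5.85% of all probe sets. With the letter as a random block, at an estimated correlation of 0.286, Ddit3 alone was left, beside 5.4% of all probe sets. None passed after adjustment in either fit.

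Differences are given as hSOD1G93A minus NonTG on the log2 scale. They ran from -0.52 for Trib3 to 0.18 for Ero1b, with a median of -0.054 over the 32 genes and 0.0070 over all probe sets tested. On leaving out each array in turn, Trib3 ranged from -0.75 (without NonTG A) to -0.20 (without hSOD1G93A C) and Ero1b from 0.075 (without NonTG B) to 0.35 (without NonTG A). In the fit without the letter, the 95% interval of the difference stayed inside 1.5-fold either way for 27 of the 32 genes (84.4%), against 63.6% of all probe sets. These shares are not matched for brightness, on which the fitted spread depends. Of the 32 genes, 19 had a mean log2 signal above 10, against 4884 of the 18625 probe sets. The 5 with a wider interval were Atf3, Ddit3, Ero1b, Trib3 and Asns. All 9 chaperones were among the 27, as were 6 of the 7 lectins and oxidoreductases.

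**Figure D1:**
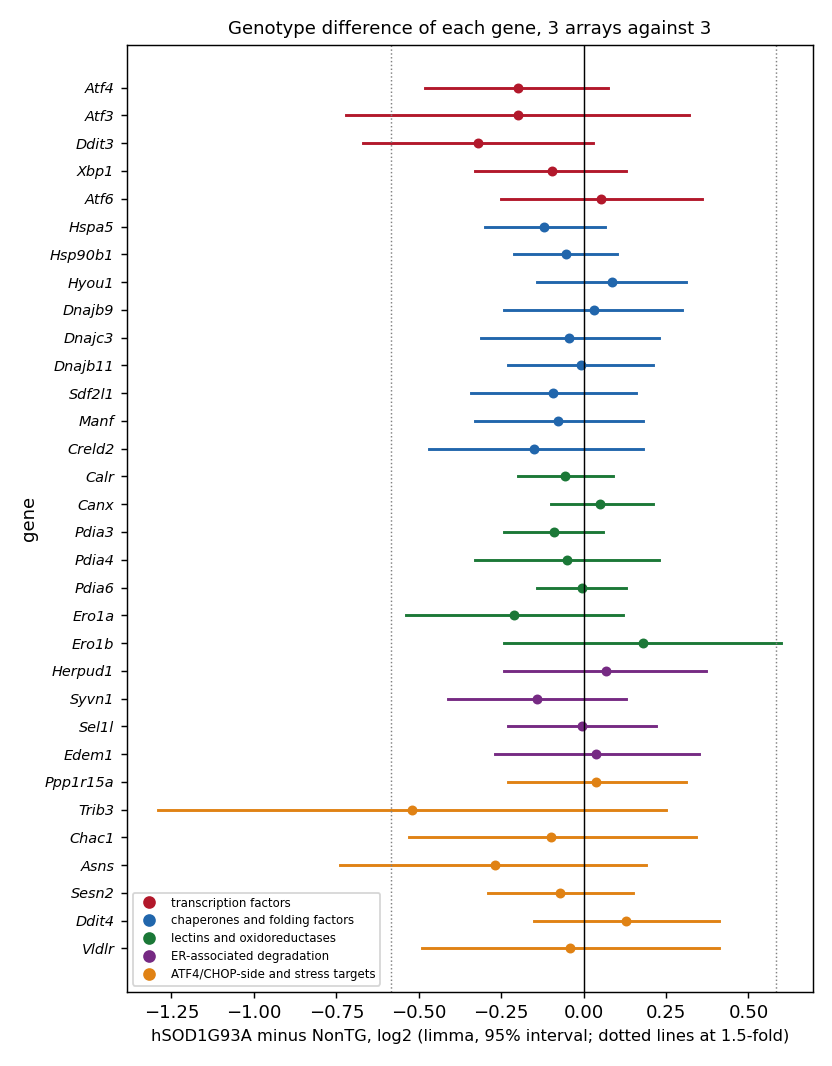
Difference of each of the 32 genes, hSOD1G93A minus NonTG, on a log2 axis, with points for limma estimates from 3 arrays per group and lines for 95% intervals, coloured by role. Every interval includes 0 in this fit, which leaves the letter out, and 27 of the 32 lie between the dotted lines at 1.5-fold. With the letter as a block, the SE was 0.12 for Ddit3 and 0.051 for Hspa5, with an unadjusted limma p below 0.05 for both.

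The transcription factors come first. Ddit3 encodes CHOP, a factor of the late stress response. Its signals were 612, 448 and 613 on hSOD1G93A arrays A, B and C, against 641, 647 and 785 on NonTG arrays A, B and C. Every hSOD1G93A array lay below every NonTG array, which held for 1 of the 32 genes (3.12%) and for 3.51% of all probe sets. In either direction, groups without overlap were seen for 7.51% of all probe sets and for no other gene of the 32. The difference was -0.32 (SE 0.15, 95% interval -0.67 to 0.029), with an unadjusted p of 0.0679 in limma, 0.0256 with the letter as a block (adjusted p = 0.834) and 0.0335 with it as a random block. It ranged from -0.39, without hSOD1G93A A or without hSOD1G93A C, to -0.17 without hSOD1G93A B.

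Atf4 encodes the factor that PERK raises by way of translation. Its signals were 5603, 3916 and 4623 in hSOD1G93A, against 5218, 5146 and 5757 in NonTG. The groups overlapped, because the hSOD1G93A A array was above 2 of the NonTG arrays. The difference was -0.20 (SE 0.12, 95% interval -0.48 to 0.073), but -0.33 without hSOD1G93A A and -0.077 without hSOD1G93A B. Its unadjusted p in limma was 0.131, 0.0555 with the letter as a block (adjusted p = 0.834) and 0.0827 with it as a random block.

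Xbp1, the mRNA that IRE1 splices, read 3057, 2446 and 2482 in hSOD1G93A, against 3017, 2725 and 2763 in NonTG. The A arrays were the highest in both groups, and the difference was -0.097 (SE 0.10, 95% interval -0.33 to 0.13), ranging from -0.20 without hSOD1G93A A to -0.040 without hSOD1G93A B. Atf3, a factor induced downstream of ATF4, was dim, at 134 ± 24.6 in hSOD1G93A and 153 ± 22.5 in NonTG (SD, n = 3 each). Atf6, the membrane-bound sensor, was at 925 ± 153 in hSOD1G93A and 886 ± 82.8 in NonTG, a difference of 0.054 (SE 0.14). A second Atf6 probe set differed by -0.19 (SE 0.23), so the sign of Atf6 depends on the probe set.

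Among the 9 chaperones and folding factors of the ER lumen, 7 differences were below 0 and 2 above, from -0.15 to 0.085, with a median of -0.053. Hspa5 encodes BiP, the chaperone that binds the sensors and is the usual gauge of the response. It read 11836, 11152 and 10160 in hSOD1G93A, against 12703, 12042 and 11148 in NonTG. The groups overlapped, yet the hSOD1G93A array was the lower one within each letter, by -0.10, -0.11 and -0.13 for A, B and C. The overall difference was -0.12 (SE 0.081, 95% interval -0.30 to 0.066), with an unadjusted p of 0.185 in limma, 0.0474 with the letter as a block (adjusted p = 0.834) and 0.102 with it as a random block. It was -0.055 after quantile normalization, and ranged from -0.17 without hSOD1G93A A or NonTG C to -0.056 without hSOD1G93A C.

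Hsp90b1, the ER member of the Hsp90 family, was at 10794 ± 633 in hSOD1G93A and 11190 ± 396 in NonTG, and differed by -0.053 (SE 0.070). Hyou1, a large chaperone of the Hsp70 family, differed by 0.085 (SE 0.10), and its second probe set by 0.095 (SE 0.15). Manf, a secreted protein that binds BiP and is known as a neurotrophic factor, read 3842, 2931 and 3606 in hSOD1G93A, against 3946, 3304 and 3653 in NonTG. The B array was the lowest of its group on both sides, and the difference was -0.077 (SE 0.11).

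Creld2, a secreted ER stress protein, read 1717, 1366 and 1165 in hSOD1G93A, against 1639, 1653 and 1373 in NonTG. Its C array was the lowest in each group, and it differed by -0.15 (SE 0.15), but by -0.30 without hSOD1G93A A and -0.016 without hSOD1G93A C. The J-domain partners of BiP differed by 0.032 (Dnajb9, SE 0.12), -0.044 (Dnajc3, SE 0.12) and -0.0076 (Dnajb11, SE 0.099). Sdf2l1, which works with Dnajb11, differed by -0.092 (SE 0.11).

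The lectins and oxidoreductases varied least by the median of the group, though not gene by gene. Over all 6 arrays the highest signal was 1.06 times the lowest for Pdia6, 1.11 times for Calr, 1.12 times for Canx and 1.12 times for Pdia3. These were bright, with group means of 7721 to 10549, and the ratio was not compared with that of equally bright probe sets. For the rest of the group the ratio was 1.34 (Pdia4), 1.4 (Ero1a) and 1.48 (Ero1b). The median of this ratio was 1.12 over the 7 genes of the group, 1.33 over the 32 genes and 1.42 over all probe sets tested. Calr and Canx are the lectin chaperones of glycoproteins, and Pdia3 is the disulfide isomerase that works with them. Calr was at 9559 ± 414 in hSOD1G93A and 9930 ± 136 in NonTG (SD, n = 3 each), and Canx at 8005 ± 443 in hSOD1G93A and 7721 ± 120 in NonTG. Pdia3 differed by -0.090 (SE 0.065), but a dimmer Pdia3 probe set by 0.12 (SE 0.15).

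Pdia4, another disulfide isomerase, read 2903, 2298 and 2775 in hSOD1G93A, against 2854, 2337 and 3072 in NonTG. The B arrays were the lowest in both groups, and the genotype difference was -0.049 (SE 0.13). Pdia6 differed by -0.0050 (SE 0.062), the smallest size of all 32 genes. The oxidases that renew disulfide isomerases had wider errors: Ero1a differed by -0.21 (SE 0.15) and Ero1b by 0.18 (SE 0.19). A further Ero1b probe set was below the dim filter, at mean signals of 5.21 in hSOD1G93A and 16.5 in NonTG, and was not tested.

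ER-associated degradation, the removal of misfolded proteins to the proteasome, was represented by 4 genes with differences on both sides of 0. Herpud1, a membrane scaffold of this machinery, was at 1191 ± 69.7 in hSOD1G93A and 1147 ± 216 in NonTG (SD, n = 3 each). Syvn1, the ubiquitin ligase of the complex, differed by -0.14 (SE 0.12), and Sel1l, its partner, by -0.0054 (SE 0.10). Edem1, a lectin that hands over glycoproteins for degradation, differed by 0.038 (SE 0.14), and its other probe sets by 0.16 (SE 0.12) and -0.067 (SE 0.15).

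The targets on the side of ATF4 and CHOP varied most between arrays, with a median ratio of highest to lowest signal of 1.69 over 7 genes. Trib3, a pseudokinase that restrains ATF4 and CHOP, read 138, 125 and 68.2 in hSOD1G93A, against 109, 146 and 217 in NonTG. The C arrays were the lowest and the highest of all 6, and the difference was -0.52 (SE 0.34, 95% interval -1.29 to 0.25). Within A it was 0.33, within B -0.22 and within C -1.67. Its probe set carries the suffix of sets that can match several transcripts, and a second one of that kind differed by -0.39 (SE 0.35). The only Trib3 probe set without that suffix was below the dim filter and was not tested. Its mean signals were 58.1 in hSOD1G93A and 67.0 in NonTG, a difference of -0.18 on the log2 scale.

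Asns, asparagine synthetase, read 1551, 910 and 1337 in hSOD1G93A, against 1374, 1276 and 1892 in NonTG. The lowest signal was on hSOD1G93A B and the highest on NonTG C, and the difference was -0.27 (SE 0.21, 95% interval -0.74 to 0.19). It was -0.44 without hSOD1G93A A, -0.10 without NonTG C and -0.051 without hSOD1G93A B. The unadjusted p of Asns in limma was 0.22, 0.0669 with the letter as a block (adjusted p = 0.84) and 0.141 with it as a random block. Chac1, an enzyme that breaks down glutathione, had the same arrays at its ends, with 598, 404 and 596 in hSOD1G93A, against 501, 505 and 700 in NonTG. Its difference was -0.098 (SE 0.19), but 0.089 without hSOD1G93A B and 0.061 without NonTG C.

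Ppp1r15a, the phosphatase subunit that restores translation, differed by 0.037 (SE 0.12). Sesn2, a stress protein that restrains mTORC1, differed by -0.071 (SE 0.096). Ddit4, another inhibitor of mTORC1, had the opposite extremes to Asns: it was highest on hSOD1G93A B and lowest on NonTG C, with a difference of 0.13 (SE 0.13). That difference was 0.22 without NonTG A and 0.0062 without hSOD1G93A B. Vldlr, a lipoprotein receptor, differed by -0.042 (SE 0.20), and its other probe sets by -0.21 to -0.099.

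**Figure D2:**
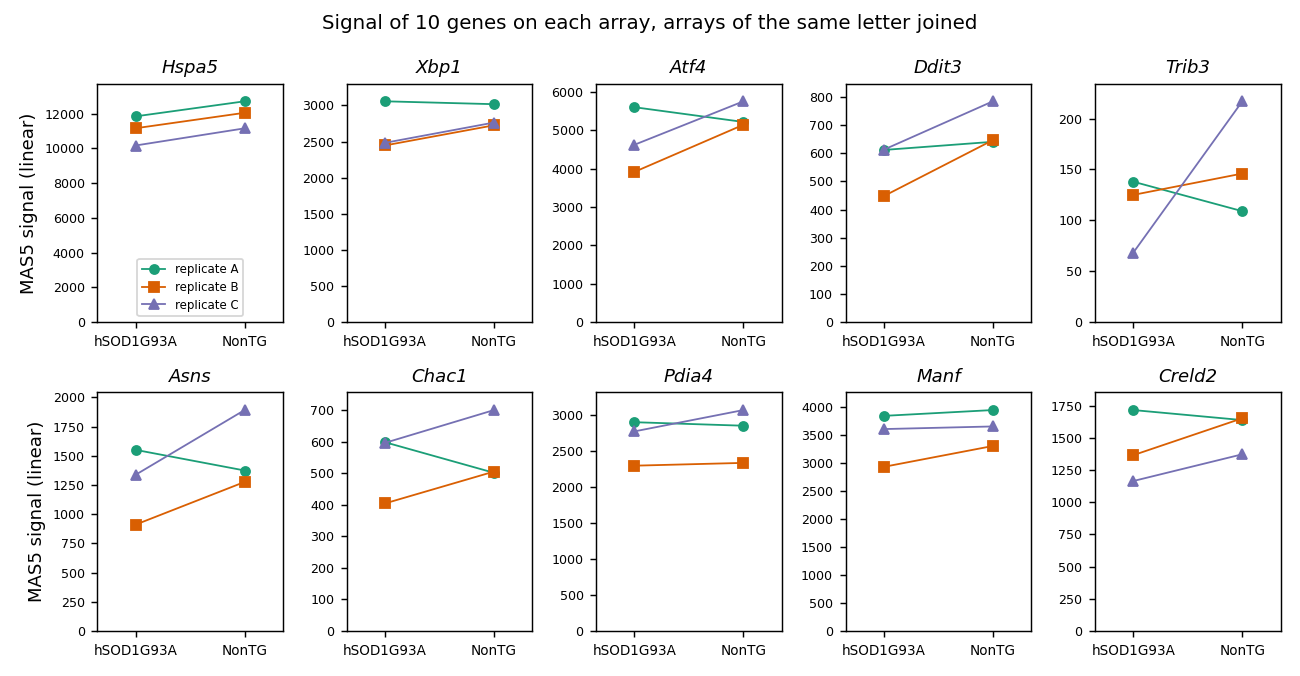
MAS5 signal, on linear axes from 0, of 10 genes in hSOD1G93A (left) and NonTG (right), with the 2 arrays of a letter joined by a line. Hspa5 is lower in hSOD1G93A in all 3 letters, by -0.10 to -0.13 on the log2 scale, while Asns and Chac1 are lower in hSOD1G93A in B and C and higher in A.

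The sign of the differences leaned to one side. Of the 32 genes 23 (71.9%) had a difference below 0, against 48.0% of all probe sets tested and 53.3% of the 4884 with a mean log2 signal above 10. Only 19 of the 32 were that bright, so the last share is not matched to the 32. After quantile normalization the count was 20 of 32 (62.5%), against 49.1% of all. Without the hSOD1G93A B array the count was 16 of 32 and the median difference was -0.013. Without the other arrays it was 19 to 24, and the median reached -0.12 without hSOD1G93A A. Taken letter by letter, the median difference was 0.030 in A, -0.14 in B and -0.13 in C. A lower hSOD1G93A signal in each of the 3 letters was seen for 5 of the 32 genes (15.6%), Ddit3, Hspa5, Sdf2l1, Manf and Syvn1, against 12.2% of all probe sets, and a higher one for 0 of the 32, against 13.5%.

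The lowest and the highest signals were unevenly spread over the arrays. The lowest of the 6 signals was on hSOD1G93A B for 13 of the 32 genes (40.6%), against 20.0% of all probe sets tested. These 13 were Atf4, Atf3, Ddit3, Xbp1, Dnajc3, Sdf2l1, Manf, Pdia4, Syvn1, Edem1, Chac1, Asns and Sesn2. The highest was on NonTG C for 12 of the 32, against 17.1% of all probe sets. Those 12 were Atf4, Atf3, Ddit3, Trib3, Chac1, Asns, Vldlr, Pdia3, Pdia4, Ero1a, Herpud1 and Syvn1. None of the 9 chaperones was among them: their highest array was NonTG A for 4, hSOD1G93A A for 3, hSOD1G93A C for 1 and NonTG B for 1.

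**Figure D3:**
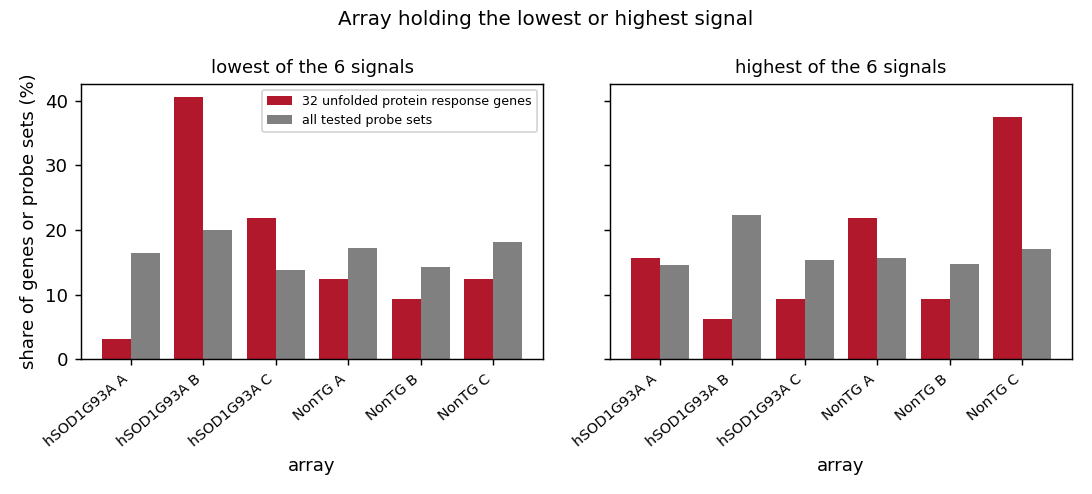
Share, in percent, of the 32 genes (red) and of all tested probe sets (grey) whose lowest (left) or highest (right) signal of the 6 was on each array. The red bars stand out for hSOD1G93A B on the left (13 of 32) and NonTG C on the right (12 of 32).

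The replicate letters were tested as well. A moderated F test in limma for the letters, with the genotype in the fit, called 195 of 18625 probe sets (1.05%) and 0 of the 32 genes at an adjusted p of 0.05. At an unadjusted p below 0.05 it counted 7 of the 32 (21.9%), beside 15.6% of all probe sets, namely Pdia4, Manf, Asns, Creld2, Hspa5, Chac1 and Xbp1. The smallest letter p among the 32 was that of Pdia4 (adjusted p = 0.152 in limma), which was 0.31 lower in B than in A and 0.33 higher in C than in B. Manf followed, with B lower than A by 0.32 (adjusted p = 0.175 in limma). Asns was 0.44 lower in B than in A, Creld2 0.41 lower in C than in A, and Hspa5 0.20 lower in C than in A. What the letters stand for is not stated in the labels.

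**Figure D4:**
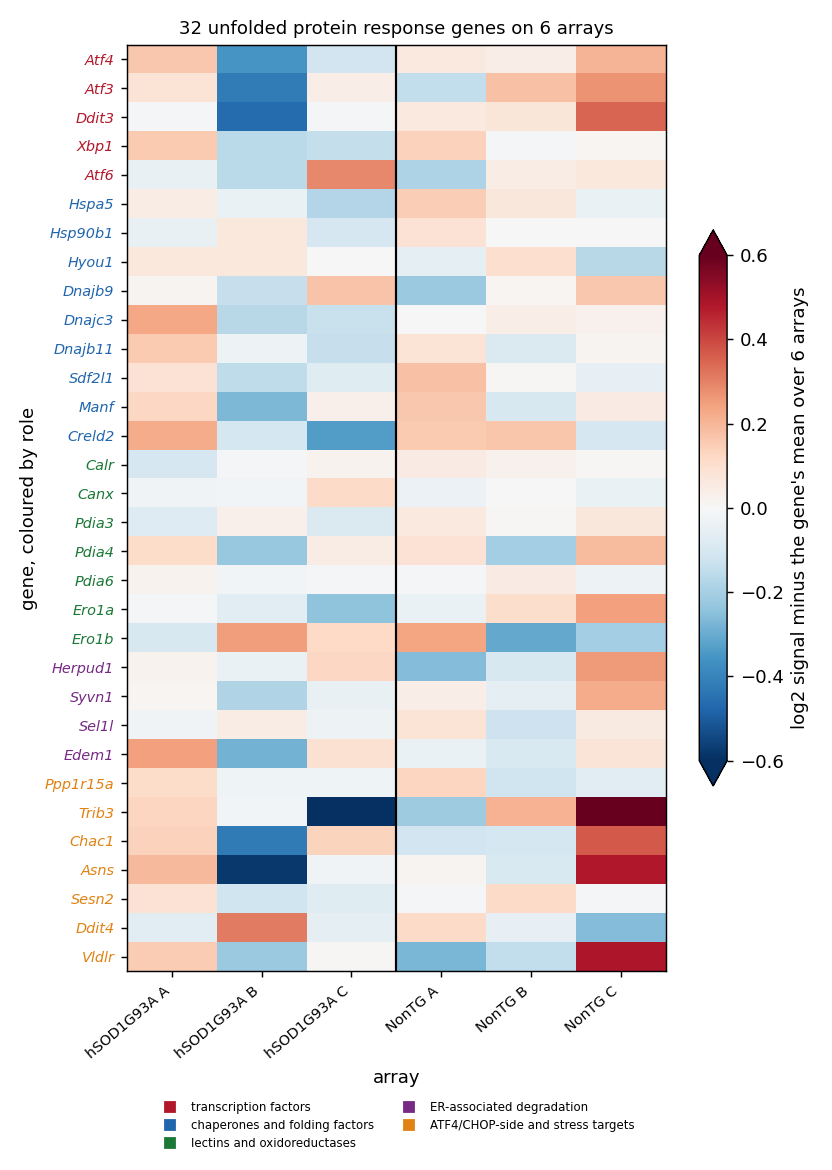
Log2 signal of each gene minus its mean over the 6 arrays, on a colour scale from -0.6 to 0.6 (Trib3 goes beyond it), with genes in rows by role and the hSOD1G93A arrays left of the NonTG arrays. The blue column at hSOD1G93A B runs through Atf4, Atf3, Ddit3, Chac1 and Asns, and the red one at NonTG C through Ddit3, Trib3, Chac1, Asns and Vldlr, while Calr, Canx, Pdia3 and Pdia6 stay near white.

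The genotype differences can be set beside the promoter elements. The 11 genes with an ERSE or ERSE-II match had a median genotype difference of -0.044 (from -0.15 to 0.18, 7 below 0), and the 15 with a window and no match one of -0.071 (from -0.52 to 0.13, 11 below 0). Neither group held a gene past the limma threshold. The 3 genes with the ATF4 element differed by -0.098 (Chac1), 0.069 (Herpud1) and -0.52 (Trib3).

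A further 126 genes of the pathway were listed by role, of which 117 were on the array and 114 above the dim filter. In limma 0 of the 114 passed the adjusted threshold in either direction, and 3 (2.63%) were under 0.05 before adjustment, a share close to the 2.54% of all probe sets. Groups without overlap were seen for 11 of the 114 (9.65%), against 7.51% of all probe sets. The 2 genes with the smallest p of each list are named below by rule, whatever their p. The 18 sensors and their partners had a median difference of 0.016, with 6 below 0 and 12 above. That is 33.3% below 0, against 48.0% of all probe sets. Among them, Eif2ak4, the kinase that senses amino acid lack and converges on ATF4, differed by -0.36 (SE 0.18). It was at 343 ± 51.2 in hSOD1G93A and 443 ± 91.3 in NonTG (SD, n = 3 each). Atf6b, a relative of Atf6, differed by 0.15 (SE 0.11). Eif2ak3, which encodes PERK and was named after its values were seen, differed by -0.041 (SE 0.19).

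Genes of translocation into the ER and of transport from it were below 0 for 22 of 26 (84.6%), with a median of -0.045. The share was 48.0% of all probe sets and 53.3% of those with a mean log2 signal above 10. All genes of this list but Sec31a were that bright. After quantile normalization the share of the bright probe sets was 48.8%, and this list was not counted again. Without the hSOD1G93A B array, on which 13 of the 26 had their lowest signal (against 20.0% of all probe sets), 16 of 26 (61.5%) were below 0. Groups without overlap were seen for 3 of the 26 (11.5%), against 7.51% of all probe sets. The 2 genes with the smallest p were among the 3, but choosing by p favours groups without overlap. Ssr4, a subunit of the translocon-associated complex, differed by -0.15 (SE 0.072), and Kdelr1, the receptor that returns chaperones to the ER, by -0.14 (SE 0.068). Further folding enzymes had a median of -0.023 over 23 genes, with Sil1, the exchange factor of BiP, at -0.18 (SE 0.12) and Uggt1, which checks the folding of glycoproteins, at 0.21 (SE 0.15). Further degradation factors had a median of -0.027 over 18, with Ube2j2, an ER ubiquitin-conjugating enzyme, at -0.13 (SE 0.089) and Selenos, a membrane selenoprotein, at -0.11 (SE 0.085).

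The 20 further ATF4 targets above the filter had a median of -0.11, with 15 below 0 and 5 above. Without hSOD1G93A B the median was -0.013, with 12 below 0. Slc7a11, the cystine transporter, was at 529 ± 94.9 in hSOD1G93A and 375 ± 54.6 in NonTG (SD, n = 3 each), a difference of 0.49 (SE 0.17). Slc7a1, a carrier of cationic amino acids, lay the other way, at 353 ± 56.2 in hSOD1G93A and 472 ± 51.2 in NonTG, a difference of -0.42 (SE 0.16). Neither passed in limma (adjusted p = 0.9997 for both). Groups without overlap were seen for these 2 of the 20, against 7.51% of all probe sets. Both genes were named for their small p, and choosing by p favours groups without overlap. Of the 20, 11 were lowest on hSOD1G93A B, against 20.0% of all probe sets, and 9 were highest on NonTG C, against 17.1%. Over all 114 further genes 44 (38.6%) were lowest on hSOD1G93A B and 30 (26.3%) highest on NonTG C, so the low signals of hSOD1G93A B were not confined to the ATF4 targets. Of 9 genes of ER-linked cell death, Casp12, a caspase of the ER membrane, differed by -0.58 (SE 0.17) and Bcl2l11, which encodes the death factor BIM, by -0.19 (SE 0.11), neither passing after adjustment.

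The marker lists of other cell types were compared between the groups in the same fit, and 0 of their genes passed. The pericyte and smooth muscle markers had a median difference of -0.30 over 7 genes, with summed signals of 17562 to 29093 on the hSOD1G93A arrays and 23649 to 29516 on the NonTG arrays. The oligodendrocyte markers had a median of 0.25 over 7, with sums of 6129 to 8206 in hSOD1G93A and 5687 to 6248 in NonTG. For fibroblast markers the sums were 45236 to 62334 in hSOD1G93A and 60793 to 61821 in NonTG, and for astrocyte markers 97991 to 116439 in hSOD1G93A and 104229 to 117693 in NonTG. Neuron markers summed to 6760 to 7852 in hSOD1G93A and 6342 to 7460 in NonTG, and microglia markers to 440 to 625 in hSOD1G93A and 388 to 576 in NonTG. Their part in the values above was not tested, and fewer cells of a type and less RNA per cell cannot be told apart in cultures measured whole.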

How the data were processed

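The deposited table holds 1 linear signal intensity per probe set and array. According to what is recorded per the submitters' processing notes, the authors used GCOS 1.4 and its MAS5 algorithm. The design text also speaks of GC-RMA and log values. The values are linear, and the mean after trimming 2% at each end was 500.16 to 500.17 on all 6 arrays. Of 31099 probe sets, 57 controls were left out. Of the 31042 others, 20826 had 1 gene symbol, 436 several and 9780 none, and 20758 were found by Entrez number in the RefSeq table.

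Values were put on the log2 scale without adding a pseudocount. Probe sets with a mean log2 value at or below the 40th percentile (signal 66.7) were left out, leaving 18625. Groups were compared with limma 3.58.1 in R 4.3.3 (lmFit, then eBayes with trend by intensity). Tests were two-sided, and p-values were adjusted by Benjamini-Hochberg across the 18625 probe sets, with a threshold of 0.05; limma's F test served for the letters. The fits were tested on simulated data with independent noise on each array, so that test does not cover arrays that deviate together. The number of arrays limits the precision, and a permutation test of 3 against 3 cannot give a p below 0.1. Same-letter arrays of the 2 groups deviated together from their group means. The correlations were 0.297, 0.254 and 0.199 for A, B and C, against -0.277 to 0.0249 for unlike letters. Deviations from a mean of 3 arrays sum to 0, so positive same-letter values lower the unlike-letter ones. The labels do not say whether the letters pair the arrays. Unless another setting is named, every genotype SE, interval and p-value is from the fit without the letter.

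The genes and lists were chosen with earlier results of these data known. Values of every array are given for Hspa5, Atf4, Ddit3 and Xbp1, the 4 genes with the smallest genotype p and the 6 with the smallest letter p. Of each further list, the 2 genes with the smallest genotype p are named. Alternatives were no filter or a stricter one at the 60th percentile, quantile normalization, a pseudocount of 7.7 (the 10th percentile of signals), array weights, no intensity trend, the letter as a block (fixed or random), other choices of probe set, and each array left out in turn.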

Additional observations from a re-analysis of the deposited data

How the results depend on the processing

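The count of 32 genes past the adjusted limma threshold for genotype was 0 under all alternatives run, as were the counts over all probe sets and over the further pathway genes. With the letter as a replicate block the counts stayed at 0. The smallest adjusted p over all probe sets in limma was 0.151 for the fixed block and 0.0915 for the random one. The median difference of the 32 genes ranged from -0.12 to -0.013 on leaving out 1 array, and from -0.062 to -0.045 under the other alternatives. The count of probe sets with a letter effect was 110 with no filter and 0 with no intensity trend, and 341 to 1009 on leaving out 1 array. The count of the 32 genes with a letter effect was 0 to 4 on leaving out 1 array, with 4 without NonTG A, 2 without hSOD1G93A A and 1 without hSOD1G93A C. The cause was not tested.

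The filters, the intensity trend and the block leave a gene's fitted difference as it is, so they say nothing of its stability. Among the alternatives that kept all arrays and can move it, the signs that turned were those of Hsp90b1 (0.0086), Dnajb11 (0.0031) and Pdia6 (0.052) after quantile normalization, Sel1l with array weights (0.00026), and Atf6 (-0.068) and Pdia3 (0.013) with the mean over all probe sets. On leaving out 1 array, 19 of the 32 genes kept their sign. The other 13 ranged from -0.076 to 0.15 (Atf6), -0.19 to 0.089 (Chac1), -0.089 to 0.061 (Dnajb11), -0.071 to 0.12 (Dnajb9), -0.17 to 0.029 (Dnajc3), -0.076 to 0.19 (Edem1), -0.045 to 0.21 (Herpud1), -0.16 to 0.038 (Manf), -0.16 to 0.053 (Pdia4), -0.022 to 0.017 (Pdia6), -0.014 to 0.11 (Ppp1r15a), -0.069 to 0.034 (Sel1l) and -0.19 to 0.19 (Vldlr). With the stricter filter, genes below it have no value. Trib3 also has none when probe sets with the suffix of sets that can match several transcripts are left out. For dim genes such as Trib3 and Atf3 signal over background limits the size of a difference.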
